A study of Mus musculus with 20 samples.

Results

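Hearts of Sorbs2 knockout mice that had been given Sorbs2 back were compared with wild-type hearts at 6 months of age, to ask which genes still differed from wild type once Sorbs2 was returned. The comparison takes 9 of the 20 RNA sequencing libraries of the study: 4 from knockout mice with the vector (KO+AAV) and 5 from wild-type mice (WT). A gene was tested when its normalised count, the deposited read count scaled between libraries, was at least 10 in at least 4 of the 14 libraries of that age, which left 13419 of 18657 listed genes. KO+AAV mice were injected as neonates, on postnatal day 2, with AAV9-Tnnt2-Sorbs2, an adeno-associated virus that carries Sorbs2 behind the promoter of cardiac troponin T, which is active in cardiomyocytes. WT mice, and the 5 knockout mice (KO) that serve here as the untreated reference, received nothing. Every KO+AAV and KO animal lacks the normal Sorbs2 gene, and no group received a vector without Sorbs2, so effects of the virus and of the returned protein cannot be told apart. The labels name the tissue as left ventricle, whereas the extraction protocol speaks of ventricular myocardium, and give neither sex nor strain. Whether knockout and WT mice share a genetic background is thus unknown. For genes that differ from WT in both knockout groups, loss of Sorbs2 and genetic background cannot be told apart. Group names are followed below by the replicate number, as in KO+AAV 3. Nothing in the labels says whether any libraries share a litter or an extraction.

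Sorbs2 encodes a scaffold protein with a sorbin homology region and SH3 domains that sits at Z-discs, intercalated discs and along actin filaments of cardiomyocytes, where it brings together cytoskeletal and signalling proteins. The study is about diastolic dysfunction after loss of Sorbs2, cytoskeletal networks and calcium handling. Hearts under strain commonly return to fetal isoforms of contractile proteins, release natriuretic peptides and deposit matrix made by activated fibroblasts. Such gene programmes serve here as the scale on which the returned hearts can be placed between WT and KO.

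Summed over genes, normalised counts came to between 12492381 and 13670340 per WT heart and between 12024143 and 13041764 per KO+AAV heart (exact two-sided permutation test, p = 0.0714; the smallest p this design allows is 0.00794). Xist, which marks female tissue, was expressed in 2 of 5 WT, 2 of 4 KO+AAV and 0 of 5 KO libraries, and Y-linked genes in the others. The Xist libraries were KO+AAV 1 and 3 and WT 4 and 5. On the first principal component of the 14 libraries, which held 28.6% of the variance, WT 5, KO+AAV 1 and KO+AAV 2 lay at 1 end (-51.3, -54.2 and -46.7). KO 2 to 5 lay at the other end (32.9 to 48.4), and the remaining libraries ran from -26.8 to 17.9. The second component held 27.9%. The defining genes of ventricular muscle were high in every heart (Myl2 ran from 143002 to 252598 in KO+AAV hearts and from 110483 to 224916 in WT hearts), and the atrial light chain gene Myl7 did not exceed 47.5 in WT or 7.82 in KO+AAV. In KO hearts Myl7 ran from 0.857 to 459. Sln, a second atrial marker, ran from 3.92 to 89.9 in KO and reached 9.55 in WT and 5.24 in KO+AAV. All groups are bulk tissue, in which fewer cells of a type and less RNA per cell cannot be told apart.

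Sorbs2 itself (chromosome 8, 45507788 to 45827906, GRCm38/mm10) was at or above the wild-type level in the hearts given the vector, and by very different amounts. Normalised counts were 5352, 5398, 5136, 4562 and 4753 in WT 1 to 5, 1648, 612, 593, 494 and 1755 in KO 1 to 5, and 4696, 5753, 15690.3 and 17923 in KO+AAV 1 to 4. KO+AAV 1 thus lay inside the WT range, KO+AAV 2 slightly above it and KO+AAV 3 and 4 far above it, and all 4 lay above every KO heart. The mean was 11016 ± 6762 in KO+AAV (SD, n = 4) and 5040.2 ± 369 in WT (SD, n = 5), and the log2 change was 0.89 with a standard error of 0.43 (95% interval -0.02 to 1.80, limma adjusted p = 0.281; exact two-sided permutation p = 0.0635). It was 1.74 with KO+AAV 1 and 2 left out (adjusted p = 0.0817) and 0.05 with KO+AAV 3 and 4 left out (adjusted p = 0.943). Reads from the vector and from the gene are counted together. The relative Sorbs3, an adaptor gene of the same family, did not pass the test (log2 change 0.25, 95% interval -0.32 to 0.82, adjusted p = 0.587).

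In the hearts given the vector, 178 of the 13419 genes tested differed from WT at an adjusted p of 0.05 in limma, a linear model per gene on log2(normalised count + 1) fitted to the 3 groups of 6 months together. That is 1.33% of the genes tested, with 82 higher in KO+AAV (0.611%) and 96 lower (0.715%). In the same model, KO against WT gave 2189 genes (16.3%) and KO+AAV against KO gave 1509 (11.2%; 5.55% higher and 5.69% lower). The last count was 542 with the Xist or Y-linked class of a library as a covariate, 571 without KO+AAV 1 and 3683 with limma's array weights, and all 5 KO hearts are Y-linked libraries. These 3 comparisons share libraries, so their values are set side by side below and not correlated. Among the 178, 62 increases and 73 decreases were at least 2-fold, 164 had no overlap between the 4 KO+AAV and 5 WT values (724 of all genes tested, 5.4%), and 161 are protein-coding. Called increases had a median log2 change of 1.37 and called decreases of -1.55. The median 95% interval of a gene extended 0.45 to either side on the log2 scale, and 2454 genes had an unadjusted p under 0.05, so smaller differences were often not detectable with these numbers of hearts. The count of 178 became 115 or 108 without KO+AAV 1 or 3, 109 or 115 without WT 1 or 2, 472 without WT 5, 101 in a model of both groups alone and 868 with array weights. It was 1308 without KO+AAV 3 and 4 together, an alternative chosen after seeing the data. Scaling the libraries to equal totals gave 240 genes, of which 65.8% were higher in place of 46.1%, with the median of all genes at 0.075.

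**Figure D1:**
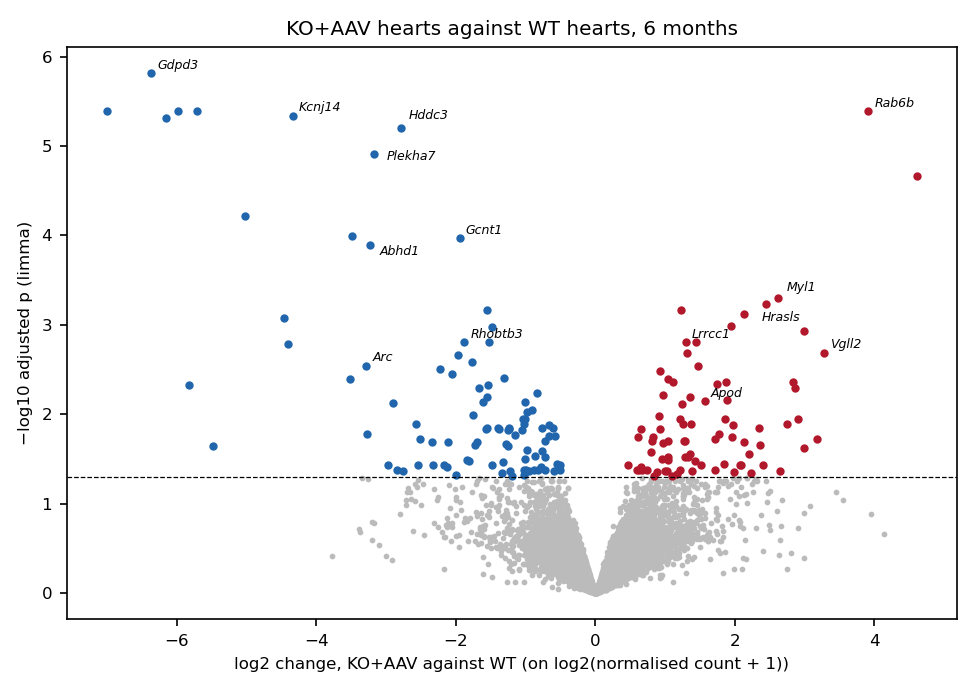
Volcano plot of KO+AAV against WT at 6 months: each point is 1 of 13419 genes, with the log2 change on the x axis and the negative log10 of the limma adjusted p on the y axis; the dashed line marks 0.05. The 82 red genes were higher and the 96 blue genes lower in KO+AAV, and labels mark genes chosen by the naming rule with an adjusted p under 0.01.

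Several of the largest differences from WT were about as large with the vector as without it. Rab6b (chromosome 9, 103111787 to 103185276), a GTPase of Golgi transport known best from neurons, stood at 289, 186, 180.4 and 234 in KO+AAV 1 to 4 and at 8.78, 9.50, 11.3, 34.9 and 13.4 in WT 1 to 5. Every KO+AAV value was above every WT value, and the KO hearts held 188, 235, 258, 303 and 269. The log2 change from WT was 3.91 ± 0.31 (SE, adjusted p = 4.08e-06) in KO+AAV and 4.09 in KO, and KO+AAV differed from KO by -0.18 (95% interval -0.84 to 0.48, adjusted p = 0.721). Gdpd3 (chromosome 7, 126766334 to 126775649), a lysophospholipase D, was at 735, 564, 239, 448 and 444 in WT, at 4.37, 1.95, 4.8, 6.55 and 2.47 in KO and at 10.4, 6.33, 2.91 and 1.83 in KO+AAV. Its transcript was thus close to absent in all 9 knockout hearts, at log2 changes of -6.37 ± 0.42 (adjusted p = 1.53e-06) with and -6.59 without the vector, a difference of 0.22 (95% interval -0.69 to 1.12). Hrasls, a phospholipid-modifying enzyme gene, held 309.6, 257, 207 and 248 in KO+AAV against 71.2, 55.2, 52.8, 50.3 and 18.6 in WT, and 245, 409, 368, 392 and 232 in KO. Its log2 change from WT was 2.45 (adjusted p = 0.000585) with the vector and 2.79 without, and the difference between them of -0.34 did not pass (adjusted p = 0.468).

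Among decreases of this kind was Plekha7 (chromosome 7, 116123485 to 116308376), which encodes a protein of adherens junctions, the cadherin contacts also found at intercalated discs. It stood at 327, 429.7, 257, 308 and 477 in WT, 28.8, 31.4, 39.2, 23.0 and 33.6 in KO and 56.6, 54.6, 33.6 and 19.5 in KO+AAV. Every KO+AAV value was far below the lowest WT value, and the 2 knockout groups overlapped (log2 change from WT -3.18 with the vector, adjusted p = 1.21e-05, and -3.47 without). Hddc3, a phosphohydrolase gene, fell by 2.79 (adjusted p = 6.24e-06; -3.19 in KO), from 580.2, 376, 466, 303 and 323 to 58.4, 51.8, 54.5 and 62.2. Gcnt1, which branches O-linked glycans, fell by 1.95 (adjusted p = 0.000108; -1.51 in KO), from 186, 225, 175, 143 and 193 to 29.9, 55.0, 52.9 and 53.5. Rhobtb3, a gene of an atypical GTPase family, fell by 1.88 (adjusted p = 0.00157; -1.32 in KO). For these genes, as for Rab6b, Gdpd3 and Hrasls, the test of KO+AAV against KO did not pass (adjusted p = 0.506 for Plekha7, 0.268 for Hddc3, 0.175 for Gcnt1 and 0.166 for Rhobtb3), which does not show that the groups are equal. Abhd1, of the alpha/beta hydrolase family, fell by 3.24 (adjusted p = 0.000128) and lay at 90.9, 103, 34.3 and 35.3 in KO+AAV and 40.7, 20.2, 14.2, 21.5 and 32.5 in KO, so that KO+AAV 1 and 2 were above every KO heart (log2 difference 1.23, adjusted p = 0.0377). Exons on the opposite strand overlap 89.6% of Abhd1 and 76.3% of Hddc3, and the strand setting of the counting is not given in the sources used here, so reads of their partners (Preb for Abhd1, Man2a2 and Gm18310 for Hddc3) could be mixed in. Lrrc4b, a synaptic adhesion gene, had log2 changes of -2.51 (adjusted p = 0.0191) and -3.29 in KO, and Bche, butyrylcholinesterase, of -1.57 (adjusted p = 0.0145) and -0.89. Lrrc4b lost its call without KO+AAV 2 or 3 or without WT 1 or 2 (adjusted p up to 0.0597), and Bche without KO+AAV 1 (0.0556).

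Other genes lay between WT and KO in the hearts given the vector. Vgll2 (chromosome 10, 52022502 to 52028471), a cofactor of TEAD transcription factors in striated muscle, stood at 1.95, 3.81, 6.61, 3.08 and 3.09 in WT, at 439.9, 295, 175, 789 and 504 in KO and at 14.2, 82.7, 62.7 and 43.2 in KO+AAV. The 3 groups did not overlap, and KO+AAV 1 was the heart closest to WT. The log2 change from WT was 3.28 ± 0.48 (adjusted p = 0.00204) in KO+AAV against 6.45 in KO, and KO+AAV was below KO by 3.17 (log2 change -3.17, adjusted p = 0.00124). Myl1, the fast skeletal muscle light chain that embryonic hearts also use, held 121, 92.2, 166, 109.8 and 169 in WT, 2815, 1474, 776, 1392 and 1950.5 in KO and 474, 1092, 1018 and 749 in KO+AAV. Here KO+AAV and KO overlapped, at log2 changes from WT of 2.62 (adjusted p = 0.000498) and 3.58, and the difference of -0.96 between them missed the threshold (adjusted p = 0.0662). Up to 36.0% of the Myl1 transcript is shared with the pseudogene Mylf-ps. Gnao1, a G protein alpha subunit, was at 219, 223, 291, 229.8 and 162 in WT, 1483, 1243, 1016, 2154 and 1873 in KO and 397, 746, 586 and 453 in KO+AAV, again with no overlap among the groups (log2 change from WT 1.26, adjusted p = 0.013, against 2.76 in KO). Lrrcc1, a centrosomal protein gene, rose by 1.30 (adjusted p = 0.00157; 2.32 in KO) and the lipocalin gene Apod by 1.57 (adjusted p = 0.00711; 2.97 in KO). In Lrrcc1 the KO+AAV values of 335, 521, 465 and 434 all lay between the WT values of 159, 159, 179, 168 and 221 and the KO values of 1004, 864, 576, 1041 and 1023.

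Matrix genes made up part of that intermediate group. Cilp (chromosome 9, 65265180 to 65280605), a cartilage-type matrix protein of cardiac fibroblasts, stood at 55.6, 97.8, 110.3, 99.4 and 69.2 in WT, 3262, 1911, 1896, 2142 and 2849.6 in KO and 127, 428, 547 and 232 in KO+AAV. The lowest KO+AAV heart was just above the highest WT heart, and all 4 were far below KO (log2 change from WT 1.77 ± 0.35, adjusted p = 0.0166, against 4.79 in KO). Tgfb2, a growth factor of the transforming growth factor beta family, had 82.9, 171, 138, 140.4 and 116 in WT, 1705, 1628, 1209.8, 1834 and 2001 in KO and 163, 551, 546 and 272 in KO+AAV, where KO+AAV 1 fell inside the WT range (log2 change 1.43, adjusted p = 0.0336). Mfap4, a microfibril protein (log2 change 1.39, adjusted p = 0.0426; 2.82 in KO), and Shisa4 (1.29, adjusted p = 0.0199; 2.93 in KO) were placed in the same way. Of the 8 genes of largest increase in KO that meet the naming rule, those not yet described were Adamts20 and Adamts8, secreted metalloproteinases, Star, which moves cholesterol into mitochondria, the matrix genes Thbs4 and Fmod, and Ildr2. Adamts20 (log2 change from WT 2.23, adjusted p = 0.0449; 5.33 in KO) and Star (2.40, adjusted p = 0.0368; 5.18 in KO) still differed from WT. Adamts8 (1.87, adjusted p = 0.0564), Fmod (1.53, adjusted p = 0.0914), Ildr2 (1.46, adjusted p = 0.129) and Thbs4 (1.05, adjusted p = 0.232) did not pass, after changes of 5.53, 5.16, 4.67 and 5.17 in KO. Several calls of this paragraph were lost when 1 heart was left out. Without KO+AAV 2 or 3 the calls of Cilp, Tgfb2, Mfap4, Shisa4, Adamts20 and Star were lost, and also without WT 1 for Cilp, without WT 3 for Shisa4, without WT 1, 3 or 4 for Tgfb2, without KO+AAV 4 or WT 1 to 4 for Mfap4 and Adamts20, and without WT 1 to 4 for Star. The highest adjusted p in these refits was 0.0596 for Cilp, 0.109 for Tgfb2, 0.12 for Mfap4, 0.0781 for Shisa4, 0.133 for Adamts20 and 0.113 for Star. Over all alternatives run, the log2 change stayed at 1.46 to 2.16 for Cilp, 1.19 to 1.78 for Tgfb2, 1.01 to 1.89 for Mfap4, 1.12 to 1.54 for Shisa4, 1.81 to 2.89 for Adamts20 and 1.93 to 3.11 for Star. The calls of Mfap4 and Adamts20 were also lost without a filter, with quantile normalisation, without the limma trend and with the Xist or Y-linked class as a covariate (adjusted p up to 0.12 and 0.136 over all alternatives). In the model of both groups alone, the calls of Cilp, Tgfb2, Mfap4, Shisa4, Adamts20 and Star were all lost. That of Shisa4 was also lost with quantile normalisation, and that of Star without the limma trend.

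A further set of genes was farther from WT with the vector than without it, or differed from WT with the vector where KO did not pass. Kcnj14 (chromosome 7, 45816460 to 45824782), an inwardly rectifying potassium channel gene, held 1153, 1056, 977, 432 and 307 in WT, 141, 127, 111, 113 and 175 in KO and 20.7, 38.2, 46.1 and 33.1 in KO+AAV. The 3 groups did not overlap and KO+AAV was lowest, at log2 changes from WT of -4.34 ± 0.35 (adjusted p = 4.58e-06) and -2.39 in KO, a difference of -1.95 (adjusted p = 0.00352). As much as 43.5% of its transcript is shared with the predicted gene Gm5522. Ddah1, which breaks down asymmetric dimethylarginine, a natural inhibitor of nitric oxide synthesis, was at 255, 215, 199, 116 and 146 in WT and 55.7, 94.3, 84.5 and 70.9 in KO+AAV (log2 change -1.25, adjusted p = 0.0145), with KO at -0.08 from WT and KO+AAV at -1.16 from KO (adjusted p = 0.00673). Thbs1, a matricellular thrombospondin, gave -2.77 from WT (adjusted p = 0.0431) and -2.82 from KO (adjusted p = 0.0114), with the values 302, 1327, 121 and 128 in KO+AAV and 1701, 5546, 745, 3386 and 1084 in WT, so KO+AAV 2 overlapped the WT hearts. Cacna1h, the T-type calcium channel of the fetal heart, rose by 1.97 (adjusted p = 0.0179), from 19.5, 23.7, 70.7, 67.6 and 71.3 to 171, 223, 192 and 125, where KO had a log2 change of 1.01 (adjusted p = 0.0738) and the difference between KO+AAV and KO did not pass (adjusted p = 0.119). Zfp157, a zinc finger gene, gave 1.36 (adjusted p = 0.0282) and 0.72 in KO (adjusted p = 0.086; KO+AAV against KO, adjusted p = 0.154). Calls were lost for Ddah1 without KO+AAV 1 (adjusted p up to 0.0556), for Cacna1h without KO+AAV 1, 2 or 3 (0.0616), for Zfp157 without KO+AAV 1, 2 or 3 or WT 2 or 4 (0.0795) and for Thbs1 without KO+AAV 1, 3 or 4 or WT 1, 2 or 4 (0.129). That of Thbs1 was also lost without a filter, with quantile normalisation, without the limma trend and with the Xist or Y-linked class as a covariate (adjusted p up to 0.244 over all alternatives). The calls of Cacna1h, Zfp157 and Thbs1 were lost as well in the model of both groups alone.

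**Figure D2:**
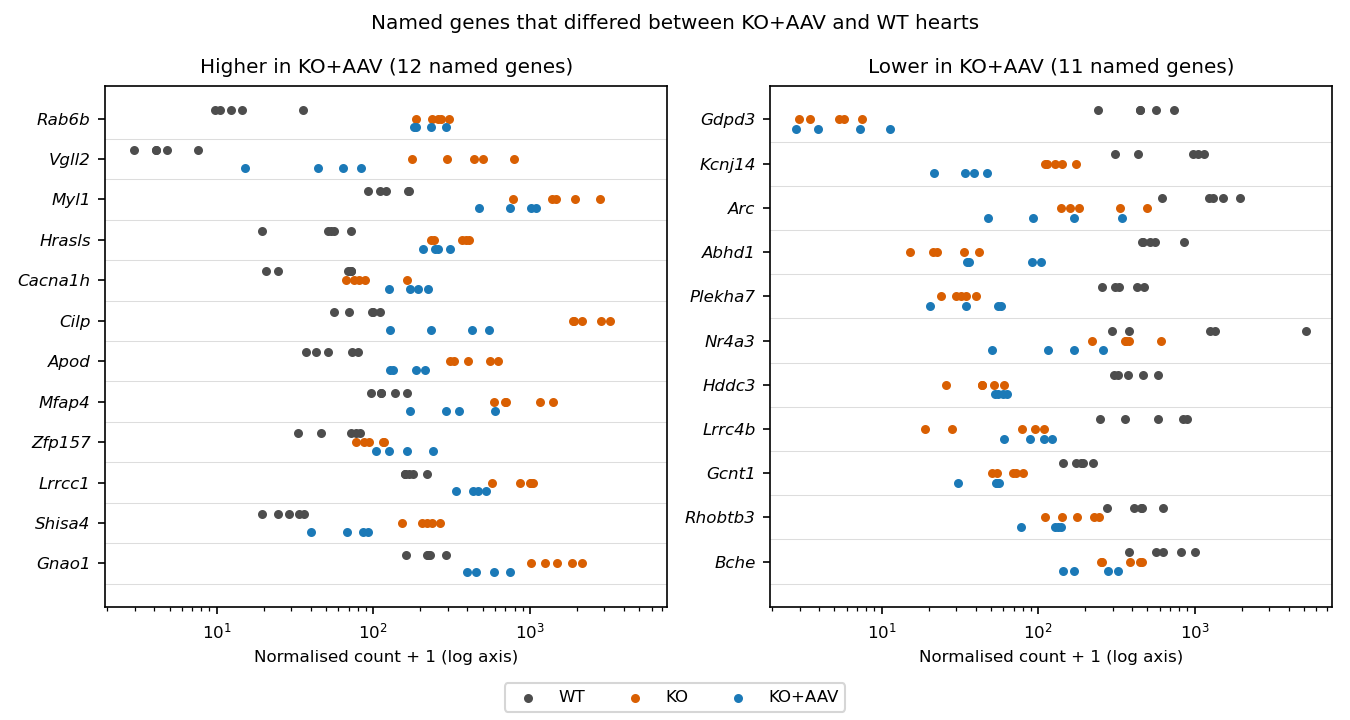
Normalised count + 1 on a log axis for the 12 named genes higher (left) and 11 of the 12 lower (right) in KO+AAV than in WT; each point is 1 heart, with WT in grey, KO in orange and KO+AAV in blue. Rab6b, Gdpd3 and Hddc3 have KO+AAV beside KO, Vgll2 and Gnao1 have KO+AAV between WT and KO, and Kcnj14 has KO+AAV farthest out.

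Lists of genes for cardiac pathways and cell types are described by how many of their members were called in KO+AAV and in KO, each against WT. Of 706 list genes tested, 19 were called in KO+AAV against WT, beside 1.33% of all genes, and the median log2 change of all genes was 0.00 in both comparisons. In KO+AAV against WT, 2454 of all 13419 genes had an unadjusted limma p under 0.05. Of the same 13419 genes, 6675 lay above 0 and 6744 below 0. Of 38 extracellular matrix genes, 1 was higher (Cilp), 1 lower (Thbs1) and 36 did not pass, with a median of 0.12 and 11 unadjusted p values under 0.05. The hearts differed: 5, 14, 18 and 7 of the 38 lay above the highest WT value in KO+AAV 1 to 4. These are 13.2%, 36.8%, 47.4% and 18.4%, beside 25.6%, 29.2%, 14.8% and 12.4% of all genes. Below the lowest WT value were 13, 8, 1 and 1, or 34.2%, 21.1%, 2.63% and 2.63%, beside 25.8%, 29.5%, 14.6% and 12.6%. In KO against WT, 34 of the same 38 were higher and none lower, with a median of 1.20 (8.13% of all genes were higher and 8.18% lower). Postn, a matricellular protein of activated fibroblasts, held 394, 981, 1065 and 901 in KO+AAV and 333, 691, 677, 465 and 367 in WT (log2 change 0.69, adjusted p = 0.279; 3.57 in KO), and the fibrillar collagen gene Col1a1 had 0.05 (adjusted p = 0.885; 1.52 in KO). Of 19 growth factor genes of fibrosis, Tgfb2 alone was called (median 0.14; 8 higher and 1 lower in KO). Of 16 haemodynamic stress and fetal genes, Vgll2 alone was called (median 0.36), where KO had 12 higher and a median of 1.84. Among these 16, 7 had an unadjusted p under 0.05 in KO+AAV against WT. Above the highest WT value were 2, 8, 8 and 6 of them in KO+AAV 1 to 4 (12.5%, 50%, 50% and 37.5%). Nppa, atrial natriuretic peptide, was at 7697, 20309, 32694 and 27963 in KO+AAV and 5866, 9946, 8782, 7057 and 5978 in WT (log2 change 1.40, adjusted p = 0.1), with 3 of 4 hearts above the WT range, against 3.36 in KO. Exons of Gm13054 on the opposite strand overlap 61.5% of Nppa, so its reads could be mixed in. Ankrd1, a stretch-responsive ankyrin repeat gene, had 1.12 (adjusted p = 0.101; 2.66 in KO) and Nppb, brain natriuretic peptide, -0.12 (adjusted p = 0.799; 1.05 in KO). In the list of 15 stretch and titin-associated genes, Ankrd2, a relative of Ankrd1 at the sarcomeric I-band, was called (log2 change 2.65, adjusted p = 0.0433), from 3.89, 4.79, 7.57, 0 and 1.03 in WT to 9.08, 39.3, 30.0 and 16.5 in KO+AAV. That list had a median of -0.25. Postn, Col1a1 and Nppb, and Atp2a2 below, were chosen after their values were seen. The call of Ankrd2 was lost without KO+AAV 2, 3 or 4 or WT 1, 2 or 4 (adjusted p up to 0.122). It was lost as well with a pseudocount of 0.5 or 5, without a filter, with quantile normalisation, with the replicate block and in the model of both groups alone (adjusted p up to 0.159 over all alternatives).

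Contractile and cytoskeletal genes gave few calls in KO+AAV against WT. None passed among 31 sarcomere and Z-disc genes (median -0.08), 30 actin and focal adhesion genes (-0.12), 26 microtubule genes (0.02) or 15 genes of Sorbs proteins and their binding partners (-0.07), and 4, 4, 3 and 3 of them had an unadjusted p under 0.05. Beside these counts stand 2454 of all 13419 genes tested. Of 23 intercalated disc and intermediate filament genes, Plekha7 was lower (median -0.16). Xirp2, which encodes a xin repeat protein that binds actin at the disc, stood at 1.10 (adjusted p = 0.107) after 3.64 in KO. Skeletal muscle isoforms gave 1 of 13 called (Myl1; median 0.42), with the slow troponin I gene Tnni1 at 2.17 (adjusted p = 0.052; 3.38 in KO).

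Calcium handling genes gave 1 increase and 1 decrease among 29 (median -0.19), where KO against WT gave 3 and 4 (median -0.17). The increase was Cacna1h. The decrease was Asph, whose products include junctin of the sarcoplasmic reticulum: 4664, 4224, 3851, 4282 and 3890.3 in WT and 2583, 2951, 3080.3 and 3189.9 in KO+AAV, with no overlap (log2 change -0.50, adjusted p = 0.0425; -0.35 in KO). Every single library left out except WT 5 ended the call of Asph (adjusted p up to 0.121), as did equal totals and quantile normalisation. The replicate block, the Xist or Y-linked class as a covariate and the model of both groups alone ended it as well. Atp2a2, the calcium pump, had a log2 change of -0.86 (adjusted p = 0.298), its regulator Pln -0.54 (adjusted p = 0.291) and the release channel Ryr2 -0.52 (adjusted p = 0.37). Exons of Cep85l and Gm47644 on the opposite strand overlap 64.7% of Pln, so their reads could be mixed in. Of 26 ion channel genes 2 were lower, Kcnj14 among them (median -0.34), against 13 lower in KO (median -0.76).

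Energy metabolism gave no called gene outside the mitochondrial stress list. None of 31 oxidative phosphorylation genes (median -0.07), 32 fatty acid genes (-0.24) or 25 glucose genes (-0.33) passed in KO+AAV against WT, and 4, 6 and 5 of them had an unadjusted p under 0.05, beside 2454 of all 13419 genes. KO against WT had 28, 22 and 9 lower genes in these lists, with medians of -0.77, -0.81 and -0.48. In KO+AAV against WT, 17, 23 and 22 members of the 3 lists lay below 0, beside 6744 of all 13419 genes. Of the 25 glucose genes, 15, 19, 8 and 5 were below the lowest WT value in KO+AAV 1 to 4. These are 60%, 76%, 32% and 20%, beside 25.8%, 29.5%, 14.6% and 12.6% of all genes. Of 18 genes of the mitochondrial integrated stress response 1 was higher (median 0.15). It was Mthfd2, a mitochondrial folate enzyme, at 79, 95.4, 175 and 171 in KO+AAV and 50.7, 28.6, 31.1, 16.4 and 53.6 in WT (log2 change 1.85, adjusted p = 0.0112; 1.68 in KO), and KO+AAV 3 and 4 were highest. Of 15 apoptosis and p53 genes, Phlda3, a p53-induced inhibitor of Akt signalling, was higher (1.09, adjusted p = 0.0489; median of the list -0.12), and that call was lost without any one of KO+AAV 1 to 4 or WT 1 to 4 (adjusted p up to 0.131), and with the Xist or Y-linked class as a covariate or quantile normalisation (up to 0.159 over all alternatives). The model of both groups alone lost the call of Phlda3 too. No member was called among 19 endoplasmic reticulum stress genes (median -0.31), although all 19 lay below 0 and 8 had an unadjusted p under 0.05. Of all 13419 genes, 6744 lay below 0 and 2454 had such a p. None was called either among 18 cytosolic heat shock genes (-0.25), 19 protein breakdown genes (-0.24), 24 adrenergic genes (-0.35), 16 glucocorticoid targets (-0.43), 19 clock genes (-0.03), 24 cell cycle genes (0.31), 13 antigen presentation genes (0.30) or 13 complement genes (0.00). In 24 cardiac transcription factor genes Vgll2 alone was called (median -0.17).

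**Figure D3:**
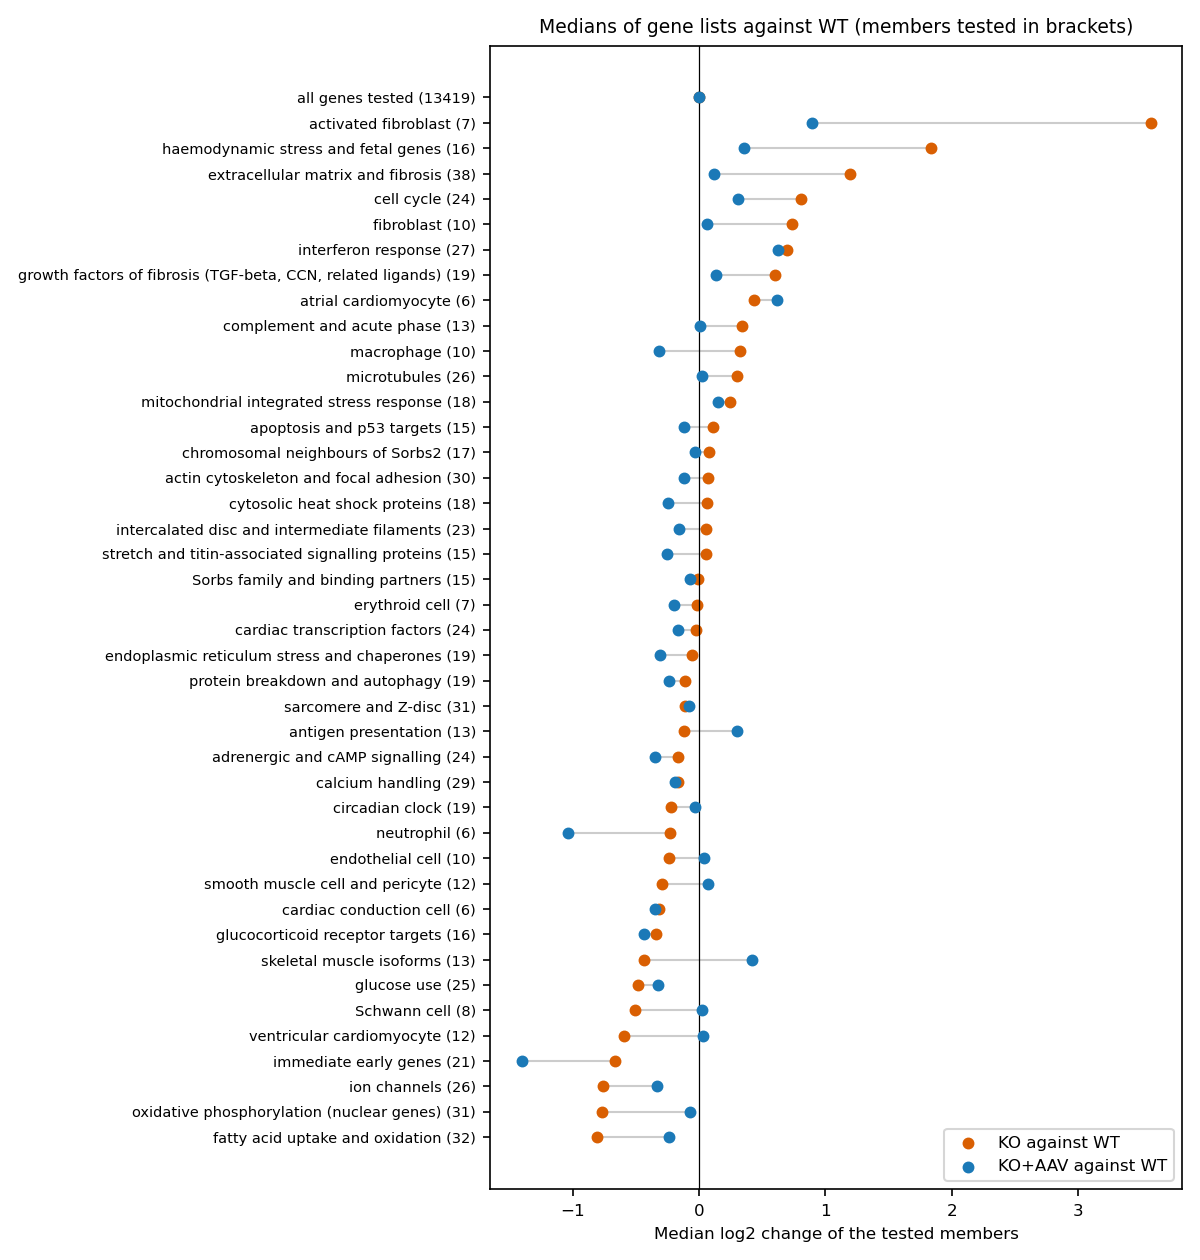
Median log2 change against WT of the tested members of each list, for KO (orange) and KO+AAV (blue) at 6 months, with the number of members in brackets; the grey line joins both medians. Activated fibroblast, stress, matrix and mitochondrial lists have KO+AAV medians nearer 0 than KO, while the immediate early genes lie at -1.40 in KO+AAV and -0.66 in KO.

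Immediate early genes, which cells transcribe within minutes of a stimulus, had the lowest median in KO+AAV against WT of the 48 lists. Of 21 tested, 3 were lower than WT (Arc, Nr4a3 and Btg2), none was higher and 18 did not pass, with a median of -1.40 and 16 unadjusted p values under 0.05. Such a p was reached by 2454 of all 13419 genes. In KO against WT 1 was lower and none higher (median -0.66). Promoters of Fos, the founding member, and of the called genes Nr4a3 and Btg2 are shown because many genes of this class respond to cyclic AMP through sites of the CRE type. The letters are the 250 bases before the RefSeq start (GRCm38.p6), written 5′ to 3′ along the gene, and capitals mark each match to the CRE core TGACG or its complement CGTCA. The promoter of Fos lies at chr12:85473640-85473889 on the plus strand, that of Nr4a3 at chr4:48045055-48045304 on the plus strand and that of Btg2 at chr1:134079156-134079405 on the minus strand.
Fos: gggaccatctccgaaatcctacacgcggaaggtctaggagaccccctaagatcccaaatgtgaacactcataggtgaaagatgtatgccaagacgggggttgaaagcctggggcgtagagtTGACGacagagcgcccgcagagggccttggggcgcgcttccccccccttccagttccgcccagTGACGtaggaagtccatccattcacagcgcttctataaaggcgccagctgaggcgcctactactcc
Nr4a3: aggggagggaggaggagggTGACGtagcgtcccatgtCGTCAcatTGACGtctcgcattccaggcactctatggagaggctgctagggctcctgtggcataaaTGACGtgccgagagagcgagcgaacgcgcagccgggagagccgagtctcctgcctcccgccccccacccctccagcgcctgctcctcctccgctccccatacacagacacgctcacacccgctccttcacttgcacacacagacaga
Btg2: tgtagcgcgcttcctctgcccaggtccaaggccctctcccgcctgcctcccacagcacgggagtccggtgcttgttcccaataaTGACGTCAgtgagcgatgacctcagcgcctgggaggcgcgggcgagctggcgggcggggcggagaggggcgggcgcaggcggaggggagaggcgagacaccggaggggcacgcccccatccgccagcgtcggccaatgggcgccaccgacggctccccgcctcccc
In Btg2 both orientations overlap in 1 palindrome. The core was present in 11 of the 15 immediate early genes with a promoter in the RefSeq table (73.33%), in 30.09% of 10148 tested genes and in 19.79% of all 27025 promoters. Genes called higher in KO+AAV held it in 10 of 58 (17.24%) and those called lower in 17 of 63 (26.98%). These are matches of letters and not measured binding sites.

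The vector hearts did not behave alike in these genes. Fos was at 1787, 2819, 67.4 and 98.3 in KO+AAV 1 to 4 and 1698, 4412, 2009, 6503 and 2429.5 in WT, so KO+AAV 1 and 2 were inside the WT range and KO+AAV 3 and 4 far below it (log2 change -2.80, 95% interval -4.69 to -0.90, adjusted p = 0.131). Egr1, a zinc finger factor of the same class, split the same way, with 4926, 6974, 220.0 and 299.9 in KO+AAV and 4085, 6162, 5169, 10919.8 and 6021 in WT (log2 change -2.31, adjusted p = 0.165). Arc (chromosome 15, 74669083 to 74672570), an activity-regulated cytoskeletal gene, was below every WT heart in all 4: 169.7, 341, 47.1 and 92.0 in KO+AAV, 1229.7, 1946, 1317, 1507 and 617 in WT and 160.0, 182, 138, 496 and 332 in KO (log2 change -3.29 ± 0.50, adjusted p = 0.00286; -2.42 in KO). Nr4a3, an orphan nuclear receptor, was at 50, 259, 114 and 168 in KO+AAV and 1252, 5183, 381, 1355 and 296 in WT (log2 change -2.98, adjusted p = 0.0372), without overlap. Btg2, an antiproliferative gene, was at 2768, 4636, 873 and 1047 in KO+AAV and 5741, 7875, 6657, 9357 and 4605 in WT (log2 change -1.84, adjusted p = 0.0324), where KO+AAV 2 was level with the lowest WT heart. The call of Arc held whichever single library was left out. In the model of both groups alone, Arc kept its call, and Btg2 and Nr4a3 lost theirs. Nr4a3 also lost its call without the limma trend. The calls of Btg2 and Nr4a3 were lost without KO+AAV 3 or 4 or WT 1, 2 or 4, and also without WT 3 for Btg2 and without KO+AAV 1 for Nr4a3 (adjusted p up to 0.099 and 0.117), and Fos and Egr1 passed without KO+AAV 2 (adjusted p = 0.0396 and 0.0483). Over the 21 genes, 20 lay below the lowest WT value in KO+AAV 3, 20 in KO+AAV 4, 11 in KO+AAV 1 and 2 in KO+AAV 2. The shares were 95.2%, 95.2%, 52.4% and 9.52%, beside 14.6%, 12.6%, 25.8% and 29.5% of all genes tested. KO+AAV 3 and 4 are also the hearts of highest Sorbs2. The same pairs lay apart on the first principal component, at -54.2 and -46.7 for KO+AAV 1 and 2 and -6.80 and 1.54 for KO+AAV 3 and 4. Deviations from the gene means correlated with GC content at 0.249 and 0.234 in KO+AAV 1 and 2 (Spearman). In KO+AAV 3 and 4 they did so at -0.0252 and 0.026. The part of Sorbs2 or of these library differences in the split was not tested. Among the KO hearts, KO 3, with Sorbs2 at 593, had 17 of the 21 genes below the lowest WT value (81.0%), and the others had 23.8% to 42.9%. Of all genes, 21.66% lay below that value in KO 3 and 22.01% to 25.15% in the other KO hearts. The lowest share, 23.8% in KO 5, stands beside 22.97% of all genes. Of the 16 glucocorticoid targets, 12 and 11 were below the lowest WT value in KO+AAV 3 and 4, 6 and 2 in KO+AAV 1 and 2, and 2 to 10 in the KO hearts. For KO+AAV 3, 4, 1 and 2 these are 75%, 68.75%, 37.5% and 12.5%, beside 14.6%, 12.6%, 25.8% and 29.5% of all genes. For the KO hearts they are 12.5% to 62.5%, beside 21.66% to 25.15% of all genes. Each pair of hearts (1 and 2, 3 and 4) holds 1 Xist and 1 Y-linked library. Fos and Egr1 are not among the genes the naming rule selects and were chosen after their values were seen.

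**Figure D4:**
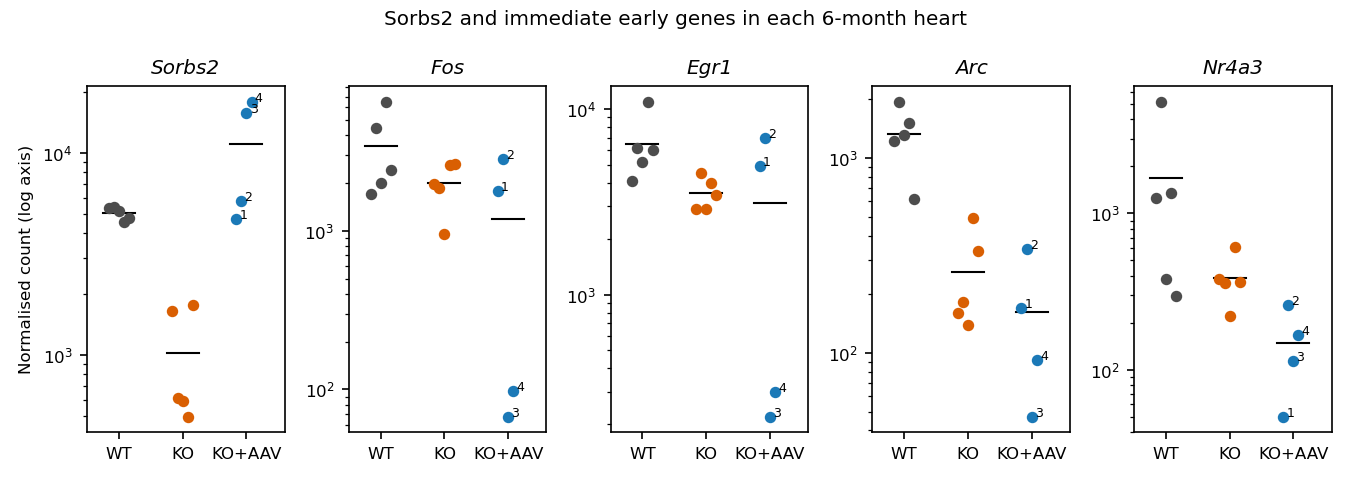
Normalised counts on log axes of Sorbs2 and of the immediate early genes Fos, Egr1, Arc and Nr4a3 in each 6-month heart; bars are group means and small digits give the KO+AAV replicate. KO+AAV 3 and 4 are highest in Sorbs2 (15690.3 and 17923) and lowest in Fos (67.4 and 98.3).

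Myl1 is shown with its promoter because Vgll2 acts with TEAD factors, which bind the MCAT element. These are the 250 bases before the RefSeq start of Myl1 at chr1:66945057-66945306 on the minus strand (GRCm38.p6), with the 1 match to GGAATG or its complement CATTCC in capitals.
Myl1: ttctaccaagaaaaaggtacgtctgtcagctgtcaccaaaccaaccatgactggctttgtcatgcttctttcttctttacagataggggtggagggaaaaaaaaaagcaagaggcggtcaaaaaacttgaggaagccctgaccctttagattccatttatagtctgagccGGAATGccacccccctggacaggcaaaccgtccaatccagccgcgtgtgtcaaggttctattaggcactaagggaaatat
The element was present in 6 of 58 promoters of genes higher in KO+AAV (10.34%), in 7 of 63 of genes lower (11.11%) and in 13.17% of tested genes, so the share in either set was not above that of all genes.

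Interferon response genes had a median above 0 in both knockout groups. Of 27 tested, 1 passed in KO+AAV against WT (median 0.62, 24 above 0 and 18 with an unadjusted p under 0.05), and 10 were higher in KO (median 0.70). Of all 13419 genes, 6675 lay above 0 and 2454 had such a p in KO+AAV against WT, and 8.13% were higher in KO. The called gene was Ifit3, an antiviral protein of the IFIT family, at 223, 202, 245 and 351 in KO+AAV and 124, 131, 156, 104 and 172 in WT, with no overlap (log2 change 0.88, adjusted p = 0.0438; 1.39 in KO). It shares 69.1% of its transcript with Ifit3b, and its call was lost without KO+AAV 1, 3 or 4 or WT 1 to 4 (adjusted p up to 0.102) and with quantile normalisation, the replicate block or the Xist or Y-linked class as a covariate (up to 0.173 over all alternatives). Ifit3 also lost its call without a filter, without the limma trend and in the model of both groups alone. Zbp1, a sensor of Z-form nucleic acids, had 21.9, 24.1, 19.1 and 27.8 in KO+AAV and 10.6, 6.68, 9.28, 5.97 and 9.65 in WT, which did not overlap either (log2 change 1.37, adjusted p = 0.0607). Above the highest WT value were 11, 15, 17 and 21 of the 27 genes in KO+AAV 1 to 4, or 40.7%, 55.6%, 63.0% and 77.8%, beside 25.6%, 29.2%, 14.8% and 12.4% of all genes.

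Genes that already differed in young knockout hearts were followed in the hearts given the vector. At 6 weeks of age, 3 untreated KO hearts differed from 3 untreated WT hearts in 78 of 13242 genes tested in a table of their own (0.589%), 50 higher (0.378%) and 28 lower (0.211%). Leaving out 1 of the 6 libraries moved that number to between 7 and 154. Of the 50 higher genes, 1 was higher in KO+AAV than WT at 6 months (Cilp) and none was lower, with a median of -0.19, beside 0.611% and 0.715% of all genes. In KO against WT 15 were higher and 3 lower, with a median of 0.13, beside 8.13% and 8.18% of all genes. Of the 27 lower genes tested at 6 months other than Sorbs2, 1 was higher in KO+AAV than WT and none was lower (median 0.19), and 1 was higher and 6 were lower in KO (median -0.49). The one higher in KO+AAV was Arhgef19, a guanine nucleotide exchange factor, at 522, 705, 405 and 470.2 in KO+AAV and 273, 245, 203, 282 and 348 in WT (log2 change 0.95, adjusted p = 0.0321; 0.14 in KO). Arhgef19 falls outside the naming rule and was chosen after its values were seen. Myh7, the slow myosin heavy chain, stood at 10988, 50766, 45479 and 13717 in KO+AAV and 12919, 8894, 9170.3, 18758 and 21171 in WT (log2 change 0.87, 95% interval -0.07 to 1.80, adjusted p = 0.304; 3.32 in KO), with KO+AAV 2 and 3 above the WT range and KO+AAV 1 and 4 inside it. Up to 34.6% of the Myh7 transcript is shared with Myh6. Casq1, the skeletal muscle calsequestrin, held 255, 810.2, 662 and 280.2 in KO+AAV and 150.0, 112, 251, 207 and 209 in WT, without overlap and again with KO+AAV 2 and 3 highest (log2 change 1.30, adjusted p = 0.113; 3.55 in KO). Mybpc2, fast myosin-binding protein C, had 0.79 (adjusted p = 0.191). Colq (0.12), Grip2 (0.61) and the uncoupling protein gene Ucp3 (0.34) from the lower set, and Fkbp5 (-1.03), a glucocorticoid target from the higher set, did not pass either.

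**Figure D5:**
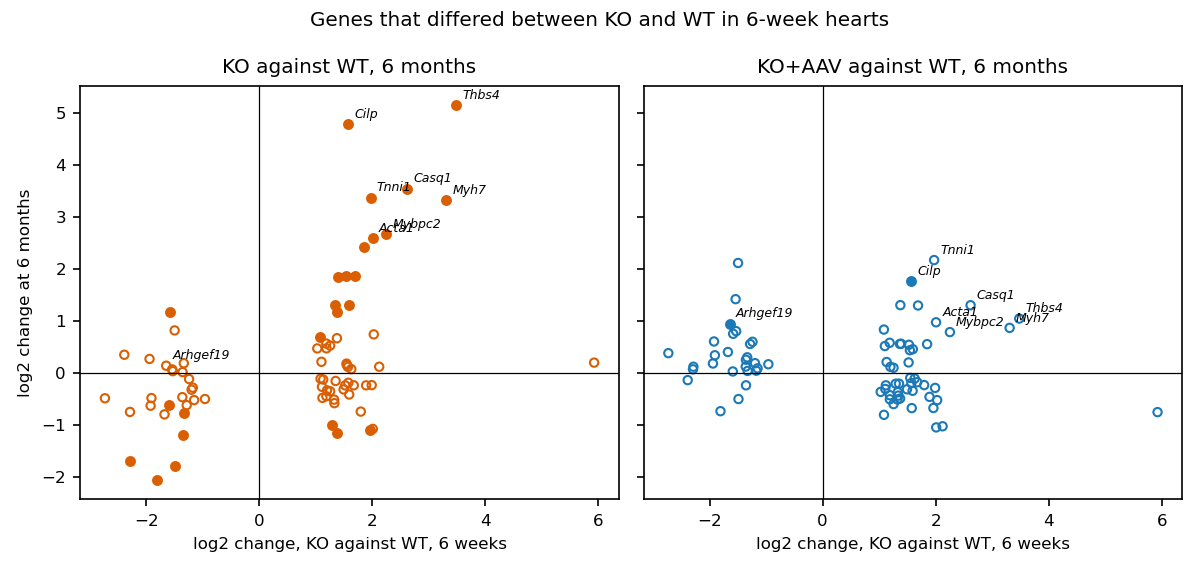
Log2 change at 6 months (y axis) against log2 change of KO against WT at 6 weeks (x axis) for genes that differed at 6 weeks, with KO against WT on the left and KO+AAV against WT on the right; filled points passed an adjusted p of 0.05 at 6 months. On the right only Cilp and Arhgef19 are filled, and Thbs4, Myh7 and Casq1 lie lower than on the left.

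Few markers of cell types passed the test between KO+AAV and WT. No member was called among 12 ventricular cardiomyocyte markers (median 0.03; 4 lower in KO, median -0.60), 6 atrial (3 with an unadjusted p under 0.05, median 0.61), 10 fibroblast (0.07; 5 higher in KO, median 0.74), 10 endothelial (0.04) or 10 macrophage markers (-0.32). The summed ventricular markers ranged from 1306928 to 1622382 in WT, 1214542 to 1874404 in KO+AAV and 740281 to 982626 in KO, and the summed activated fibroblast markers from 3980 to 6991, 3610 to 5323 and 10656 to 23190. The sums of KO+AAV overlapped those of WT and not those of KO in either list, but a sum follows its most abundant members. Gene by gene, of 7 activated fibroblast markers tested, Cilp was higher and Ddah1 lower (median 0.89; 5 higher and 1 lower in KO, median 3.57), and 6 had an unadjusted p under 0.05. Above the highest WT value were 1, 4, 5 and 4 of the 7 in KO+AAV 1 to 4, and 5 in every KO heart. In KO+AAV 1 to 4 these are 14.3%, 57.1%, 71.4% and 57.1%, beside 25.55%, 29.18%, 14.81% and 12.36% of all genes. In the KO hearts the share was 71.4%, beside 19.99% to 24.69% of all genes. Of 12 smooth muscle and pericyte markers, the pericyte proteoglycan Cspg4 was higher (median 0.07), at 401, 448, 457 and 442 in KO+AAV and 266, 258, 305, 256 and 305 in WT (log2 change 0.65, adjusted p = 0.0388; 1.20 in KO). That call was lost without any one of KO+AAV 1 to 4 or WT 1 to 4 (adjusted p up to 0.108). Of 6 conduction cell markers, 1 was lower (median -0.35). No call came from the T or NK cell (2 tested, median 0.52), B cell (4, 0.86), neutrophil (6, all below 0, -1.04), erythroid (7, -0.20), adipocyte (3, -0.21), mesothelial (3, 0.92), Schwann cell (8, 0.02), skeletal muscle (4, 0.00), lung (1, 0.76) or liver (1, 2.44) markers, and the lung genes Sftpc and Scgb1a1 were at 0 in all WT and KO+AAV hearts. Of the liver transcripts, Alb, Apoa1 and Fgb stood at 268, 59.9 and 72.2 in KO+AAV 2 and at most at 2.83, 1.95 and 1.92 in the other WT and KO+AAV hearts. Ttr was at 14.3, 22.8, 11.6 and 4.58 in KO+AAV, 0 to 5.14 in WT and 5.86 to 24.0 in KO, and Apoa2 at 15.5, 23.2, 4.92 and 4.39 in KO+AAV and 0.706 to 10.6 in WT. The summed liver markers were at 465 in KO+AAV 2 and at 3.23 to 29.8 in the other WT and KO+AAV hearts.

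The called genes were also looked at by class of library and by chromosome. Limma's test of a difference between the Xist and the Y-linked libraries in the change of KO+AAV from WT called 0 genes (455 with an unadjusted p under 0.05, smallest adjusted p 0.856). It rests on 2 Xist and 2 Y-linked KO+AAV hearts and on 2 and 3 WT hearts. With so few hearts, it does not show that the change is alike in both classes. With the class as a covariate 173 genes were called, and in the Y-linked libraries alone, 2 KO+AAV and 3 WT hearts, 44. Within 5000 kb of Sorbs2, 36 other genes were tested and 2 were called, beside 1.33% of all genes, Zdhhc2, a palmitoyltransferase gene (log2 change -1.34), and 1700029J07Rik (2.35), and both were named after their values were seen. Of 17 listed chromosomal neighbours none was called (median -0.03). Chromosome 8 gave 15 of 702 tested genes (2.14%), and the highest share of any chromosome was 2.65% on chromosome 13.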

How the data were processed

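The authors deposited 1 table of normalised counts per gene for each age, a signal on a common scale within a table, and the values used are those deposited. Per the labels, poly(A) RNA was sequenced as 150 bp read pairs from stranded libraries, and per the submitters' processing notes the build was mm10. Which aligner, counter, annotation and strand setting were used is not stated in these sources. Low values were whole multiples of 1 step, within 0.1 of a step, for 93.1% to 95.2% per library, which did not reach 95% throughout, so read counts were not recovered and count models were not run.

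Values were transformed as log2(value + 1) and fitted with limma 3.58.1 (R 4.3.3), with moderated variances, a mean-variance trend and 1 model for the 3 groups of 6 months, over genes with a value of at least 10 in 4 libraries (3 at 6 weeks). P-values are two-sided, adjusted after Benjamini and Hochberg over all genes tested, and called under 0.05. They set the difference between groups against the spread between these libraries. Scripts were tested on simulated data. Sorbs2 and the totals were also compared by exact permutation tests.

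Genes named are those of the Sorbs family; the 12 largest increases and decreases among called genes with a mean of 100 or more, no overlap between groups and no predicted, clone or pseudogene symbol; up to 4 members of smallest p per list; the 8 of largest change per direction in KO against WT; and 5 per direction at 6 weeks. Some genes that this rule names are not reported here. The 48 lists (30 pathways, 18 marker sets; 706 of 783 genes tested), the comparison and the tests were chosen with earlier results of these data known, and the lists serve as descriptions. Alternatives were pseudocounts of 0.5 and 5, filters of 0 and 50, equal totals, quantile normalisation, no trend, array weights, the replicate number as a block, the Xist or Y-linked class, 2 groups alone and each library left out. Positions are from GENCODE M21 (98.8% of genes matched by symbol), promoters from RefSeq (GRCm38.p6). Tables and plots were made with pandas 2.3.3, matplotlib 3.10.9 and numpy 2.4.6 in Python 3.11.15.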

Additional observations from a re-analysis of the deposited data

Results flagged for a closer look

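Within each group of 4 or 5 hearts, the distance of the extreme heart to its nearest neighbour was compared with the range of the group on the scale of log2(normalised count + 1) (Dixon's ratio, 95% critical value 0.829 for 4 hearts and 0.710 for 5). Of 78 groups checked, 3 exceeded it, where chance alone gives about 1 in 20. In Hrasls, WT 5 was lowest at 18.6, against 50.3 to 71.2 in the other WT hearts (ratio 0.738). In Gcnt1, KO+AAV 1 was lowest at 29.9, against 52.9 to 55.0 in the other KO+AAV hearts (ratio 0.937). In Rhobtb3, KO+AAV 2 was lowest at 76.5, against 128 to 139.9 in the others (ratio 0.854). The calls of Hrasls, Gcnt1 and Rhobtb3 against WT held whichever single heart was left out, with a limma adjusted p of at most 0.00359, 0.000639 and 0.00659.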

How the results depend on the processing

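All 178 genes called in KO+AAV against WT kept their direction in the 20 alternatives planned, and 62 kept their call in every one of them (25 higher, 37 lower). The count of 178 became 868 with limma's array weights (178 shared) and 101 in a model of KO+AAV and WT hearts alone. It ranged from 108 to 472 when 1 heart was left out: 115, 152, 108 and 169 without KO+AAV 1 to 4 and 109, 115, 129, 127 and 472 without WT 1 to 5. In alternatives chosen after seeing the data it was 44 in Y-linked libraries alone, 1308 without KO+AAV 3 and 4, 142 without KO+AAV 1 and 2, and 242 after correction for GC content and length (169 shared). The 19 list genes became 107 with array weights, 9 in the model of both groups alone, 8 to 39 with 1 heart left out, 6 in Y-linked libraries alone, 61 without KO+AAV 3 and 4 and 33 without KO+AAV 1 and 2. The log2 change of Sorbs2 was 1.51 with array weights (adjusted p = 0.009) and 0.58 to 1.22 with 1 heart left out, over all alternatives with an adjusted p of 0.009 to 0.943.

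KO+AAV against KO gave 3683 genes with array weights, 542 with the Xist or Y-linked class as a covariate and 571 to 1816 with 1 heart left out, in place of 1509; with equal totals 33.9% of its genes were higher in place of 49.4%. KO against WT gave 1520 to 2115 with 1 heart left out, in place of 2189, and with equal totals 73.1% of its genes were higher in place of 49.8%, with the median of all genes shifted by 0.159. The count of 78 at 6 weeks became 36 with equal totals and 7 to 154 with 1 library left out (49, 8 and 135 without the WT columns 1, 6 and 16, and 154, 10 and 7 without the KO columns 2, 3 and 4). The difference in totals was -681326, and -914115 to -519921 with 1 heart left out. The cause of these changes was not tested.

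Like-numbered hearts did not pair: in 13 pairs the correlation of deviations from the group means ran from -0.391 to 0.253, with 7 above 0.1, and in 0 pairs was each the other's best match. With the replicate number as a block, 183 genes were called in KO+AAV against WT, 2071 in KO against WT and 1764 in KO+AAV against KO, the lists gave 22, and Sorbs2 changed by 1.01. The 6-week columns carry no sample numbers that could be paired. The depth of the libraries in reads is unknown, so low values carry no counting interval.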

Other observations

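The genes of this section fall outside the naming rule and were chosen after their values were seen. Ptprn2, a receptor-type phosphatase homologue of dense-core vesicles, held 214, 539, 210.2, 132 and 189 in WT 1 to 5, 6.20, 2.92, 0, 5.44 and 4.11 in KO 1 to 5 and 1.30, 1.28, 0 and 0.921 in KO+AAV 1 to 4, and was thus close to 0 in all 9 knockout hearts, with or without the vector (log2 change from WT -7.0 and -5.86, limma adjusted p = 4.08e-06 and 2.52e-06). Gbp2b, an interferon-induced GTPase gene, stood at 78.9, 66.5, 108, 93.3 and 88.7 in WT and 0, 0, 0.960 and 1.84 in KO+AAV (log2 change -5.82, adjusted p = 0.00471), in the opposite direction to the median of the interferon list. In KO it was at 0, 0, 2.88, 77.3 and 2.46, so KO 4 alone lay in the WT range. Glo1, which detoxifies methylglyoxal, was at 977, 918, 1350.1 and 1344 in KO+AAV and 4502, 4494, 2851, 2773 and 2549.9 in WT, a log2 change of -1.56 (adjusted p = 0.000691) beside -1.52 in KO. Dnah8, an axonemal dynein gene that overlaps Glo1 on chromosome 17, changed by -2.23 with and -2.24 without the vector.

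The neighbours Naip2 and Naip5, inflammasome sensors that lie 9.65 kb apart on chromosome 13, were both higher in KO+AAV than WT (log2 change 1.84, adjusted p = 0.0358, and 2.83, adjusted p = 0.00438) and had log2 changes of 1.65 and 1.89 in KO. Naip5 shares 43.6% of its transcript with Naip6 and Naip2 25.1% with Naip1, so reads may be split between copies. The call of Naip2 was lost without KO+AAV 2, 3 or 4 or WT 2 or 4 (adjusted p up to 0.114). It was also lost with quantile normalisation, with the replicate block and in the model of both groups alone (limma adjusted p up to 0.133). In all, 18 pairs of called genes lay within 200 kb of each other. How many such pairs an equal number of tested genes would give was not counted, so the number does not show whether called genes cluster.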
